A study of Mus musculus with 11 samples.

Results

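Transcripts of 4 genes of mitochondrial carbohydrate oxidation were measured in mouse ventricles: Suclg1, Fh1 and Mdh2, which code for enzymes of the TCA cycle, and Pdp2, which codes for a phosphatase of pyruvate dehydrogenase. They were picked by gene symbol from the 8106 named genes tested and are read by 7 spots on the arrays. The 4 genes were chosen by their lower level in dilated than in wild-type hearts, where each had passed the test across all features. Their values in that comparison are therefore a description, given with no test. The 95% intervals given with them are not corrected for that choice, and by it each lies wholly below 0. Among the measured genes of the cycle and of pyruvate dehydrogenase, Mdh2 lay just inside that threshold with a log2 difference of -0.32 ± 0.07, and Sucla2, a subunit of succinyl-CoA synthetase, lay just outside it with -0.38 ± 0.10 (SE).

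The tissue was ventricle with septum from male mice of the TG1306/1R line (strain given as C57/BL6), about 60 weeks old, in 3 groups of 4. Dil mice were heterozygous carriers of the transgene with a dilated heart, Hyp mice were heterozygous carriers with concentric hypertrophy, and WT mice were littermates without the transgene. The line overexpresses angiotensinogen, the precursor of the hormone angiotensin II, in the heart, and the promoter of the transgene is not given in the sources used here. Carriers were sorted into Dil and Hyp by chamber shape, cardiac weight index and hypertrophic marker expression, so these features describe the groups and are no outcome. The index (heart weight over body weight) ran from 7.8 to 9.2 mg/g in Dil, from 5.4 to 5.8 mg/g in Hyp and from 4.2 to 4.9 mg/g in WT, with the 2 label values of Hyp3 averaged to 5.45 mg/g. Mice numbered alike in the 3 groups are called a set here, and each of the 11 cDNA arrays compared 2 mice of a set in 2 colours: 3 arrays set Dil against WT, 4 set Dil against Hyp and 4 set Hyp against WT. The Dil and WT array of set 2 was not analysed here, so that difference in set 2 comes through the Hyp2 mouse.

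The TCA cycle oxidises acetyl-CoA in the mitochondrial matrix and hands the electrons to the respiratory chain. Pyruvate dehydrogenase is the gate through which pyruvate from glucose and lactate enters the cycle: its kinases phosphorylate and close it, and its phosphatases remove the phosphate and open it. The adult heart makes most of its ATP in mitochondria, chiefly from fatty acids and otherwise from carbohydrate, and failing hearts are known for altered use of these fuels.

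An array of this kind gives ratios between 2 mice, not amounts. The sign was taken as Cy5 over Cy3, which is likely but not stated in the sources used here. Its basis is that Agt, the angiotensinogen gene, and Nppb, the gene of B-type natriuretic peptide, then came out higher in Dil than in WT hearts, by 2.15 ± 0.40 and 2.53 ± 0.32 on the log2 scale (SE). With the opposite dye direction every sign given here would turn. The log base was taken as 2. Over all 12097 features the median difference was 0.00 in each comparison, so the values below are relative to a table centred near 0. The arrays of sets 3 and 4 that carried a Dil heart had a wider spread over spots (scaled median absolute deviation 0.236 to 0.354) than those of sets 1 and 2 (0.127 to 0.172), and the arrays of Hyp and WT lay between 0.115 and 0.180. Ratios within heart tissue cannot show whether defining markers of cardiac muscle are present, and in such bulk samples fewer cells of a type and less RNA per cell cannot be told apart.

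All 4 genes were lower in every Dil mouse than in any WT mouse, and the Hyp mice overlapped the Dil mice for all 4 genes and the WT mice for 3. The level of a mouse is given as a log2 value relative to the mean of the 3 mice of its set, after the fitted dye term was taken out. A low Dil mouse thus raises the levels of the other mice of its set. No array links the sets, so levels of mice from different sets compare only in this relative sense. Over all features, 8.75% had Dil levels wholly below WT levels. That share is given for scale only, because the 4 genes were chosen by this comparison. Features that passed the test as lower in Dil than in WT made up 1.15% of those tested, and features that passed as higher made up 1.00%.

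**Figure D1:**
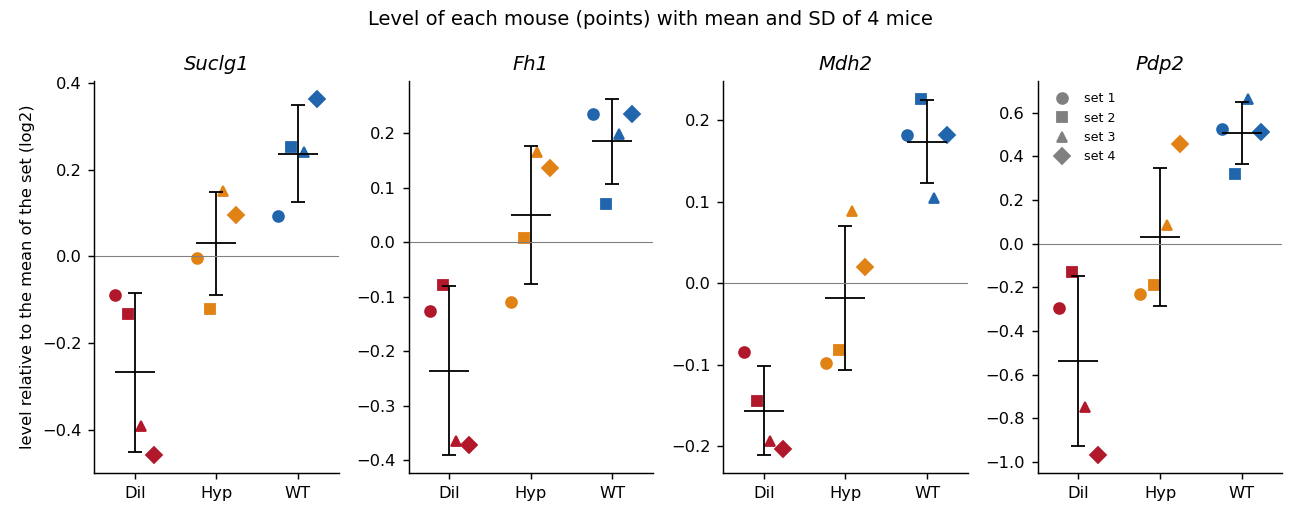
Level of Suclg1, Fh1, Mdh2 and Pdp2 in each of the 12 mice (log2, relative to the mean of the mouse's set) for Dil, Hyp and WT, with symbols for the sets and bars for the mean and SD of 4 mice. Dil levels lie below all WT levels for each gene. The Hyp mice of sets 3 and 4 lie above those of sets 1 and 2, but each level depends on the other mice of the set.

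Pdp2 codes for a catalytic phosphatase that dephosphorylates and so activates pyruvate dehydrogenase. Its levels in the mice of sets 1 to 4 were -0.30, -0.13, -0.75 and -0.97 in Dil hearts, -0.23, -0.19, 0.09 and 0.45 in Hyp hearts, and 0.53, 0.32, 0.66 and 0.51 in WT hearts. Every Dil mouse lay below every WT mouse, the Dil mice of sets 3 and 4 were lowest, and the Hyp4 mouse lay within the WT range. The means were -0.54 ± 0.39 in Dil, 0.03 ± 0.32 in Hyp and 0.50 ± 0.14 in WT (SD, n = 4 each). The fitted difference of Dil minus WT was -1.11 ± 0.21 on the log2 scale (SE), a level 0.464 times that of WT, with a 95% interval from -1.57 to -0.64. Of the 4 genes, Pdp2 had the largest difference from WT. It rests on 1 spot, which had no value on the array of Hyp1 and WT1, so 10 arrays enter its fit. On the direct arrays, the log2 ratio of Dil over WT was -0.82 in set 1, -1.39 in set 3 and -1.41 in set 4.

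Suclg1 codes for the alpha subunit of succinyl-CoA synthetase, the enzyme that turns succinyl-CoA into succinate and yields a nucleoside triphosphate directly. Its levels in sets 1 to 4 were -0.09, -0.13, -0.39 and -0.46 in Dil hearts, 0.00, -0.12, 0.15 and 0.09 in Hyp hearts, and 0.09, 0.25, 0.24 and 0.36 in WT hearts. The Dil and WT mice did not overlap, whereas Hyp3 and Hyp4 reached the lower end of the WT range and Hyp2 lay within the Dil range. The difference of Dil minus WT was -0.52 ± 0.11 (SE; 0.697 times WT; 95% interval -0.77 to -0.27). On the arrays of Dil and WT, the mean ratio of its 2 spots was -0.04 in set 1, -0.47 in set 3 and -0.83 in set 4. Suclg1 had a dye term of 0.15 on the log2 scale. Array ratios hold this term, whereas the values of a set are free of it and also draw on the arrays that reach Dil and WT through the Hyp mouse.

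Fh1 codes for fumarate hydratase, which converts fumarate to malate. Its levels in sets 1 to 4 were -0.13, -0.08, -0.37 and -0.37 in Dil hearts, -0.11, 0.01, 0.17 and 0.14 in Hyp hearts, and 0.24, 0.07, 0.20 and 0.24 in WT hearts. The Dil mice of sets 3 and 4 stood well below those of sets 1 and 2, and Hyp1 lay within the Dil range while Hyp3 and Hyp4 lay within the WT range. The difference of Dil minus WT was -0.46 ± 0.09 (SE; 0.727 times WT; 95% interval -0.66 to -0.26). The direct array ratios of Dil over WT were -0.22 in set 1, -0.43 in set 3 and -0.81 in set 4, with a dye term of 0.14.

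Mdh2 codes for mitochondrial malate dehydrogenase, which turns malate into oxaloacetate and closes the cycle. Its levels in sets 1 to 4 were -0.08, -0.14, -0.19 and -0.20 in Dil hearts, -0.10, -0.08, 0.09 and 0.02 in Hyp hearts, and 0.18, 0.23, 0.10 and 0.18 in WT hearts. Relative to the mean of the set, its Dil levels varied least (SD 0.05, n = 4, against 0.16 to 0.39 for the other 3 genes). Variation of the Dil mice between sets cannot be read from such levels. The difference of Dil minus WT was -0.32 ± 0.07 (SE; 0.799 times WT; 95% interval -0.49 to -0.16). The direct array ratios of Dil over WT were -0.15 in set 1, -0.24 in set 3 and -0.34 in set 4.

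Where a gene had 2 spots, the spots were compared on every array. For Suclg1 the spots differed by a median of 0.148 on the log2 scale and by 0.509 at most, with the same sign on 10 of 11 arrays. For Fh1 the median was 0.164, the largest difference 0.399 and the same sign held on 10 of 11 arrays. The 2 Mdh2 spots differed more, by a median of 0.275, and by 0.874 on the array of Hyp1 and WT1, where one gave -0.79 and the other 0.09, and they shared their sign on 7 of 11 arrays. Fitted spot by spot, the difference of Dil minus WT was -0.33 and -0.32 for Mdh2, -0.44 and -0.61 for Suclg1 and -0.53 and -0.40 for Fh1, so both spots of each gene gave the same direction. On the array of Hyp1 and WT1, where most values had to be moved back to their spot, 1 spot of each of these 3 genes had been moved and the other had stood in its own place. For Mdh2 the moved spot gave -0.79 there, and the spot in its own place gave 0.09. With that array left out or its column as deposited, Mdh2 no longer had an adjusted p under 0.05 in Dil minus WT.

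**Figure D2:**
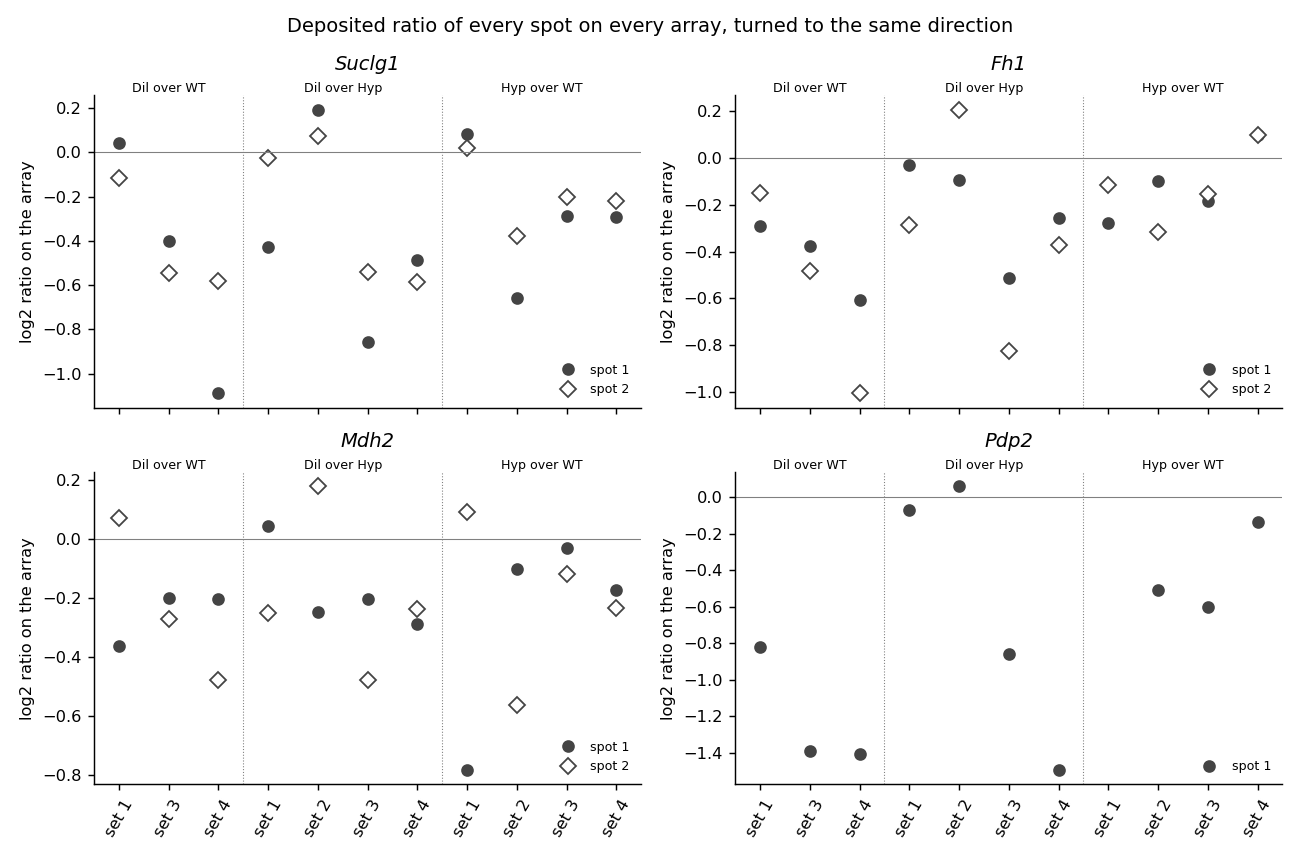
Deposited log2 ratio of each spot of Suclg1, Fh1, Mdh2 and Pdp2 on every array, turned so that Dil stands over WT, Dil over Hyp and Hyp over WT (filled and open symbols are the spots of a gene). The Dil over WT ratios of Pdp2 run from -1.41 to -0.82, and the spots of Mdh2 lie furthest apart on the Hyp over WT array of set 1.

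The difference between the carrier groups did not choose the genes, but it shares the Dil mice with the comparison that did. None of the 4 genes passed the test in Dil minus Hyp, where 0.165% of all features passed in either direction (20 of 12097). Pdp2 had -0.63 ± 0.20 (adjusted p = 0.298), Fh1 had -0.31 ± 0.09 (adjusted p = 0.234), Suclg1 had -0.31 ± 0.11 (adjusted p = 0.342) and Mdh2 had -0.14 ± 0.07 (adjusted p = 0.599), all as log2 differences with SE and 4 mice per group. Dil and Hyp levels overlapped for each of the 4 genes, against 4.50% of features whose Dil levels all lay below the Hyp levels.

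The sets differed in this comparison. In set 1 the Dil minus Hyp difference was -0.07 for Pdp2, -0.08 for Suclg1, -0.02 for Fh1 and 0.01 for Mdh2, and in set 2 it was 0.06, -0.01, -0.09 and -0.06 for the same genes. In set 3 it was -0.84 for Pdp2, -0.54 for Suclg1, -0.53 for Fh1 and -0.28 for Mdh2, and in set 4 it was -1.42, -0.55, -0.51 and -0.22. By these dye-corrected values, which join the direct and indirect arrays of a set, the Dil and Hyp mice of sets 1 and 2 stood within 0.1 of each other for all 4 genes, and in sets 3 and 4 every gene was lower in the Dil mouse. The direct array ratios of Dil over Hyp hold the dye term. Within sets 1 and 2, they lay further from 0 for Suclg1 in both sets and for Fh1 and Mdh2 in set 1 only. In sets 1 and 2 they were -0.23 and 0.13 for Suclg1, -0.16 and 0.06 for Fh1, -0.11 and -0.04 for Mdh2 and -0.07 and 0.06 for Pdp2. In sets 3 and 4 they were -0.70 and -0.54 for Suclg1, -0.67 and -0.31 for Fh1, -0.34 and -0.26 for Mdh2 and -0.86 and -1.50 for Pdp2, all lower than the ratios of the same gene in sets 1 and 2. The 13 other measured enzymes of the cycle had medians of -0.08, 0.15, -0.31 and -0.37 for Dil minus Hyp in sets 1 to 4. Markers of fibroblasts had medians of 0.03, -0.20, 0.43 and 1.02 in the same sets (11 of 12 listed markers measured), and the Dil arrays of sets 3 and 4 also had the wider spread given above. The part of either in the difference between sets was not tested, and with 4 sets no test of it was made.

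**Figure D3:**
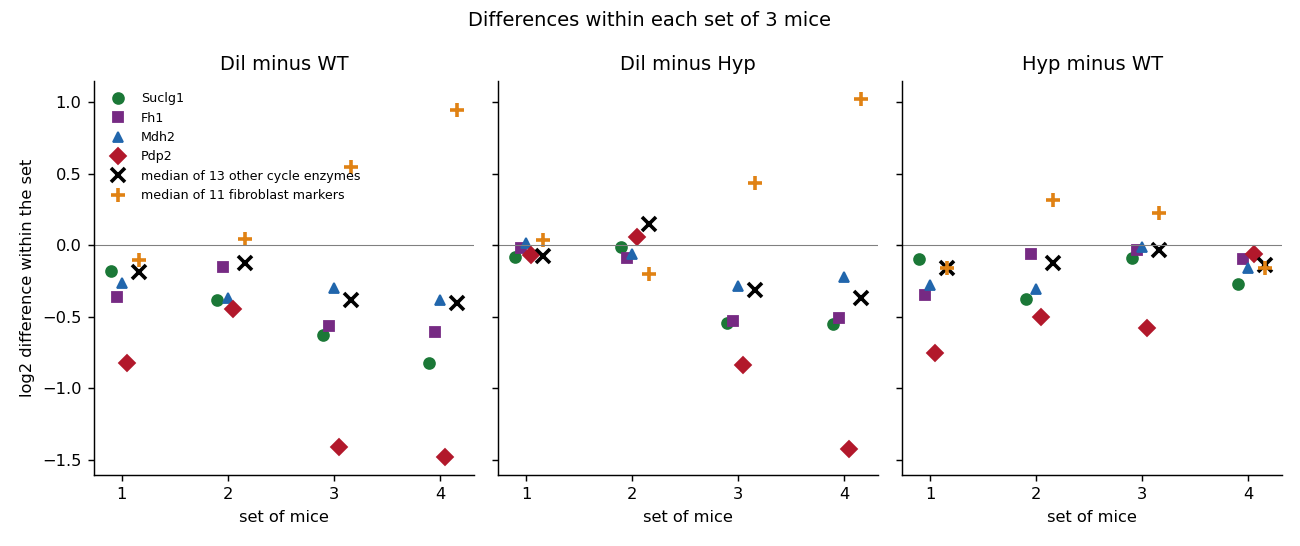
Log2 differences within each set for Dil minus WT, Dil minus Hyp and Hyp minus WT, for Suclg1, Fh1, Mdh2 and Pdp2, with the median of 13 other cycle enzymes and of 11 fibroblast markers. For Dil minus Hyp, values of the 4 genes are near 0 in sets 1 and 2 and run from -1.42 to -0.22 in sets 3 and 4, where the fibroblast median is 0.43 and 1.02.

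Hypertrophic hearts without dilatation were compared with WT hearts, a comparison that shares the WT mice with the one that chose the genes. None of the 4 genes passed, and 0% of features passed in either direction (limma, 0 of 12097, smallest adjusted p = 0.871, with 533 features at an unadjusted p under 0.05). The log2 differences of Hyp minus WT were -0.48 ± 0.21 for Pdp2 (95% interval -0.94 to -0.02), -0.22 ± 0.11 for Suclg1 (-0.45 to 0.02), -0.19 ± 0.07 for Mdh2 (-0.34 to -0.04) and -0.15 ± 0.09 for Fh1 (-0.34 to 0.03), each with an adjusted p of 0.999. The intervals are those of single genes, not adjusted for the number of features. For Mdh2 the Hyp levels all lay below the WT levels, as they did for 2.63% of all features, and for the other 3 genes the groups overlapped. The gap was narrow: the highest Hyp level of Mdh2 was 0.0890 and the lowest WT level 0.1045, both in set 3. On the array of Hyp1 and WT1 its 2 spots had opposite signs. Within sets 1 to 4, the Hyp minus WT difference of Pdp2 was -0.76, -0.51, -0.58 and -0.06, that of Suclg1 was -0.10, -0.37, -0.09 and -0.27, that of Fh1 was -0.34, -0.06, -0.03 and -0.10 and that of Mdh2 was -0.28, -0.31, -0.02 and -0.16. All 16 of these dye-corrected values were below 0, as were 6065, 5822, 6095 and 6180 of 12097 features in sets 1 to 4. Neither these values nor the direct ratios are separate observations. The 4 genes followed each other over the mice and were chosen by a comparison with the same WT mice. Of the 15 direct array ratios of Hyp over WT, 13 were below 0, and those above 0 were Suclg1 in set 1 (0.05) and Fh1 in set 4 (0.10). The value of Pdp2 in set 1 comes through the Dil1 mouse, since the direct array held no value.

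The rest of the cycle was read from a list of 18 genes, of which 16 were measured. In Dil minus WT all 16 lay below 0, with a median of -0.30, against 48.9% of all features below 0 and a median of 0.00. Those that fell were Suclg1, Fh1 and Mdh2, which had been chosen for it, and 0 rose. The 13 others ranged from -0.43 to -0.12 with a median of -0.25, and none of them passed. Under other settings, from 0 to 5 of the 16 passed, and the number was 0 with any 1 of the 4 sets left out.

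The steps next to Suclg1, Fh1 and Mdh2 lay below 0 as well, without passing the test. The partner subunits of succinyl-CoA synthetase, Sucla2 for the ATP-forming and Suclg2 for the GTP-forming enzyme, had -0.38 ± 0.10 (adjusted p = 0.0770) and -0.33 ± 0.10 (adjusted p = 0.105) in Dil minus WT. Of succinate dehydrogenase, which makes the fumarate that Fh1 uses, the flavoprotein subunit Sdha had -0.43 ± 0.11 (adjusted p = 0.0865), the iron-sulphur subunit Sdhb had -0.25 ± 0.07, and the membrane anchors Sdhc and Sdhd had -0.23 ± 0.08 and -0.21 ± 0.11. Upstream, Dld, the lipoamide dehydrogenase shared by the 2-oxoglutarate and pyruvate dehydrogenase complexes, had -0.42 ± 0.13 (adjusted p = 0.120). The other parts of 2-oxoglutarate dehydrogenase, Ogdh and Dlst, had -0.13 ± 0.12 and -0.17 ± 0.09. Of the NAD-dependent isocitrate dehydrogenase, Idh3g had -0.31 ± 0.09 (adjusted p = 0.0895) and Idh3a had -0.29 ± 0.09 (adjusted p = 0.155). The NADP-dependent Idh2 and citrate synthase (Cs), the enzyme of entry, had the widest errors, at -0.12 ± 0.21 and -0.18 ± 0.21.

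In Dil minus Hyp, all 16 cycle genes again lay below 0 (median -0.17, none passed), against 51.6% of all features. This comparison shares the Dil mice with Dil minus WT, so the agreement of direction is no separate evidence. In Hyp minus WT, 14 of 16 lay below 0 (median -0.12, none passed), against 49.5% of all features, with Cs and Ogdh at 0.04 each. Hyp minus WT shares the WT mice with Dil minus WT, so here too the agreement is no separate evidence. By mouse, the median level of the 16 genes ran from -0.24 to -0.03 in Dil, from -0.09 to 0.09 in Hyp and from 0.07 to 0.20 in WT.

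**Figure D4:**
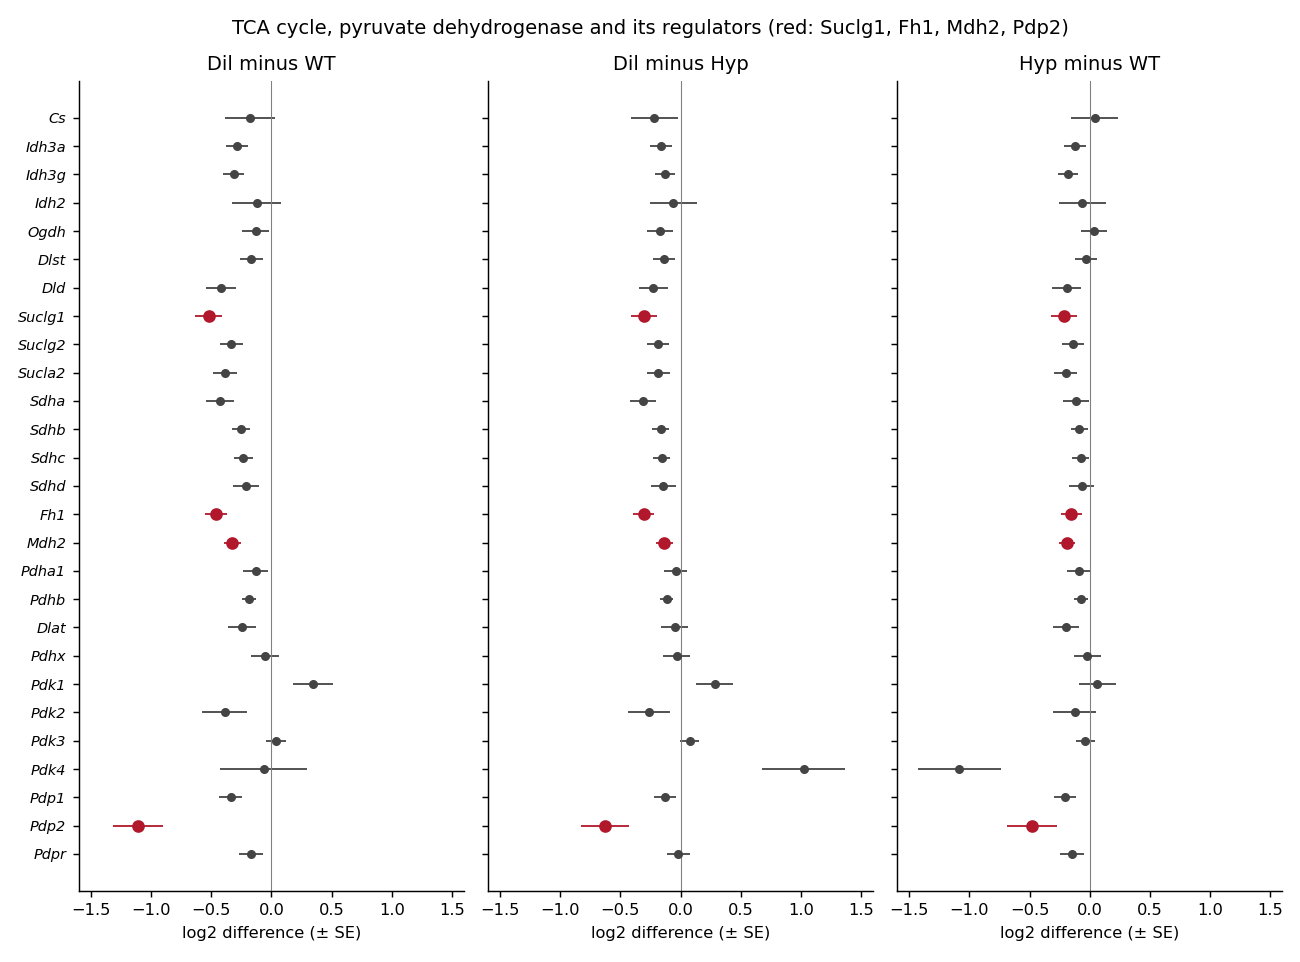
Log2 differences (points) with SE (bars) of 27 measured genes of the TCA cycle, pyruvate dehydrogenase and its kinases and phosphatases, for Dil minus WT, Dil minus Hyp and Hyp minus WT. In Dil minus WT, 25 of 27 genes lie below 0, against 48.9% of all features. Pdp2 lies lowest at -1.11, and Pdk1 at 0.35 and Pdk3 at 0.04 lie above 0.

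Pyruvate dehydrogenase itself, the target of Pdp2, was measured in all 5 listed subunits. All 5 lay below 0 in Dil minus WT, against 48.9% of all features, none passed, and their median was -0.19. Besides Dld, the E1 subunits Pdha1 and Pdhb had -0.13 ± 0.10 and -0.19 ± 0.06, the E2 subunit Dlat had -0.25 ± 0.12, and the E3-binding protein Pdhx had -0.05 ± 0.12. Pdha1 carries the serines on which the kinases and phosphatases act, a state that transcript ratios do not read.

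Of the 7 genes for kinases and phosphatases of the complex, Pdp2, which had been chosen for it, passed in Dil minus WT and the others did not. The median of the 7 was -0.17, with 5 of 7 below 0, against 48.9% of all features. Pdp1, the other catalytic phosphatase, had -0.34 ± 0.10 (adjusted p = 0.104), with set values of -0.22, -0.62, -0.20 and -0.46. Pdpr, the regulatory subunit of the phosphatase, had -0.17 ± 0.10. Among the kinases, Pdk2 had -0.39 ± 0.19 (adjusted p = 0.336), Pdk3 had 0.04 ± 0.09 and Pdk1 had 0.35 ± 0.16 (adjusted p = 0.327).

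Pdk4, the kinase known to be induced by fasting and fatty acids, had its lowest values in Hyp mice and passed in no comparison. Its levels in sets 1 to 4 were 0.44, 0.30, 0.26 and 0.15 in Dil hearts, -1.29, -1.17, -0.54 and 0.20 in Hyp hearts, and 0.85, 0.87, 0.29 and -0.35 in WT hearts. Relative to the mean of the set, the Hyp1 and Hyp2 levels were far below those of the other mice, and the Dil levels varied little. The Hyp minus WT difference was -1.08 ± 0.34 (adjusted p = 0.977), with -2.13, -2.04, -0.83 and 0.54 in sets 1 to 4. Its sign thus turned in set 4, and the SE rests on a variance ratio shared by all features. The Dil minus Hyp difference was 1.02 ± 0.34 (adjusted p = 0.319), and Dil minus WT had -0.06 ± 0.36 (adjusted p = 0.959). Within sets 1 to 4 the Dil minus Hyp difference of Pdk4 was 1.73, 1.46, 0.80 and -0.04, so it was highest in sets 1 and 2, where the difference of Pdp2 lay near 0.

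Pathways beside the cycle were counted from lists in the same way. For 8 measured genes of pyruvate and lactate handling and of anaplerosis, the refilling of cycle intermediates, the median in Dil minus WT was -0.15. Of these 8, 1 fell and 0 rose, against 1.15% of all features that fell and 1.00% that rose. The gene that fell was Mmut, methylmalonyl-CoA mutase, which feeds succinyl-CoA into the cycle next to Suclg1 (-0.50 ± 0.11, adjusted p = 0.0412). It passed in 6 of 13 alternative settings (adjusted p from 0.0241 to 0.310) and in none that left out a set. The lowest of the list was Ldhb, the lactate dehydrogenase subunit typical of heart (-0.52 ± 0.14, adjusted p = 0.0977), and the highest was Ldha, the subunit typical of glycolytic muscle (0.27 ± 0.11, adjusted p = 0.272). Of 7 measured genes of the malate-aspartate shuttle and citrate carriers, none passed, and they ran from Mdh1, the cytosolic malate dehydrogenase (-0.28 ± 0.11), to the aspartate-glutamate carrier Slc25a13 (0.23 ± 0.23). Cytosolic counterparts of cycle enzymes lay at -0.30 ± 0.09 for Idh1, -0.24 ± 0.07 for Aco1 and, as given, for Mdh1, and none of the 3 passed.

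Genes used as signs of mitochondrial content (outer and inner membrane transport, mitochondrial DNA upkeep, chaperones and their transcriptional regulators) gave a median of -0.06 in Dil minus WT over 25 measured genes, with 18 below 0 and none passing. This is 72% of the list, against 48.9% of all features below 0. They ran from Ppargc1b, a coactivator of mitochondrial genes (-0.42 ± 0.17), to Lonp1, a matrix protease (0.44 ± 0.18). The 13 cycle enzymes other than Suclg1, Fh1 and Mdh2 had their median at -0.25 in the same comparison, and the difference between the lists was not tested.

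Markers of other cell types in the ventricle were read beside these values. Of 11 measured fibroblast markers, 9 lay above 0 in Dil minus WT with a median of 0.41, against 6177 of 12097 features above 0. The markers did not move alike: Pdgfra had -0.20 ± 0.10, Lum -0.05 ± 0.13 and Tcf21 0.04 ± 0.06, whereas Col1a2 had 0.56 ± 0.22, Col3a1 0.62 ± 0.17 and Fn1 0.82 ± 0.26. Only 1 passed, against 1.00% of all features that passed as higher. It was Fbln2, a matrix protein (1.00 ± 0.23, adjusted p = 0.0486; it passed in 5 of 13 alternative settings, with adjusted p from 0.0305 to 0.344, and of those that left out a set only without set 1). The median level of the fibroblast markers per mouse ran from -0.07 to 0.67 in Dil, from -0.33 to 0.15 in Hyp and from -0.26 to 0.09 in WT, and the Dil mice of sets 3 and 4 were highest. Of 17 listed markers of cardiac muscle cells 4 were measured, none passed, and their median was -0.13: Actn2 had 0.46 ± 0.18, Ttn 0.08 ± 0.07, Ryr2 -0.33 ± 0.12 and Atp2a2 -0.47 ± 0.16. The 3 measured markers of smooth muscle (of 5 listed) all lay below 0 with a median of -0.42, and none passed: Myh11 had -0.73 ± 0.18 (adjusted p = 0.0595), Smtn -0.42 ± 0.15 and Cnn1 -0.03 ± 0.08. Their median level per mouse ran from -0.42 to 0.00 in Dil, from -0.04 to 0.23 in Hyp and from -0.03 to 0.14 in WT. None of the measured markers of endothelium (6, median -0.01), macrophages (2, median 0.20), fat cells (4, median -0.09) or red cells (1, at 0.35) passed, and no lymphocyte marker was measured. In sets 1 and 2, where the fibroblast medians of Dil minus WT were -0.10 and 0.04, the 4 genes had differences of -0.82 and -0.45 (Pdp2), -0.18 and -0.38 (Suclg1), -0.36 and -0.15 (Fh1) and -0.27 and -0.37 (Mdh2). In sets 3 and 4, with fibroblast medians of 0.54 and 0.95, the differences were -1.41 and -1.48 (Pdp2), -0.63 and -0.82 (Suclg1), -0.56 and -0.61 (Fh1) and -0.30 and -0.38 (Mdh2). The part of the cell composition in these differences was not tested, and their sign in Dil minus WT follows from the choice of the genes.

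The 4 genes followed each other over the 12 mice. Pearson's r between their levels ran from 0.875 for Mdh2 and Pdp2 to 0.959 for Fh1 and Pdp2. The points share arrays and the levels of a set sum to 0. The difference between Dil and WT, by which the genes were chosen, enters r. A high r thus follows in part from that choice, and r is a description. The 250 bases before their start sites are shown as a description, from RefSeq on GRCm38.p6, 5′ to 3′ on the strand of the gene. Capitals mark matches to any of 6 motifs searched on both strands: AAGGTCA (bound by oestrogen-related receptors), GCGCATGC (core of the NRF1 site), CCGGAAGT (bound by ETS factors such as GABP), CACGTG (E-box), GGGCGG (Sp1 site) and CCAAT.
Pdp2, chr8:104591222-104591471, plus strand: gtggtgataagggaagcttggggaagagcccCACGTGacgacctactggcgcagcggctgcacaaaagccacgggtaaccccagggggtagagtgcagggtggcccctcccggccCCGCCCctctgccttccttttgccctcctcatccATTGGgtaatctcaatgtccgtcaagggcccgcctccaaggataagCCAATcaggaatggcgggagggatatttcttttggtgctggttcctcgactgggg
Suclg1, chr6:73248255-73248504, plus strand: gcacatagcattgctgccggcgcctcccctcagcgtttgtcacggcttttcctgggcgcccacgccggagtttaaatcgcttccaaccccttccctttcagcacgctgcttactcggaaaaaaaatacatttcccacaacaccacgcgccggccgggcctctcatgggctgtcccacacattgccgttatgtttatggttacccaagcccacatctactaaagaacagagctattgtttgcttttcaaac
Fh1, chr1:175625636-175625885, minus strand: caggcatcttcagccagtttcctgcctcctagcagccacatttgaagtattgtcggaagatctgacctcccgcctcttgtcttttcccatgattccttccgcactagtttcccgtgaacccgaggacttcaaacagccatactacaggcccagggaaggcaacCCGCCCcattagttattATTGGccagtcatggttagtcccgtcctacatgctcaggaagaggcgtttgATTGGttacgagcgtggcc
Mdh2, chr5:135778399-135778648, plus strand: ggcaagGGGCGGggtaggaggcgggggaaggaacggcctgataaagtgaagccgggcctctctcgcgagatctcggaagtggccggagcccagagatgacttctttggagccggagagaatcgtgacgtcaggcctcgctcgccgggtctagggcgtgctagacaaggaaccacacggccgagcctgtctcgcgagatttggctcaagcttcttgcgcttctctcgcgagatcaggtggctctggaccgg

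The windows had no motif in common to all 4 genes. Pdp2 held 1 E-box, which begins 219 bases before the start, 1 Sp1 site in reverse and 2 CCAAT boxes, one on each strand. Fh1 held 1 Sp1 site and 2 CCAAT boxes, all in reverse and within 87 bases of the start, and Mdh2 held 1 Sp1 site, 244 bases before the start. The Suclg1 window held none of the 6 motifs, and no matches overlapped. Over 32851 mouse promoters of the same length, the Sp1 letters occurred in 32.7%, CCAAT in 33.8%, the E-box in 6.02%, AAGGTCA in 4.08%, CCGGAAGT in 2.88% and GCGCATGC in 2.26%. A match is a run of letters and does not show that a factor binds there, and the search covers 250 bases only. GC content was 60.8% for Pdp2, 53.2% for Suclg1, 52.8% for Fh1 and 63.2% for Mdh2, against a median of 52.4% over all promoters.

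The genes whose levels over the 12 mice were most like each of the 4 were taken from 6832 genes with a value on all arrays, by Pearson's r. For Pdp2 they were Acot7, an acyl-CoA thioesterase (r = 0.986), Acaa2, a thiolase of mitochondrial fatty acid oxidation (r = 0.983), and Nipsnap2 (r = 0.982). For Suclg1 they were Crat, carnitine acetyltransferase (r = 0.992), Ghr, the growth hormone receptor (r = 0.989), and Gfra1, a receptor for glial cell line-derived neurotrophic factor (r = 0.975). For Fh1 they were Bzw2 (r = 0.985), Spryd7 (r = 0.976) and Ces1d, a carboxylesterase (r = 0.970). For Mdh2 they were Ctnnd2, a catenin (r = 0.979), Npc1, a lysosomal cholesterol transporter (r = 0.968), and Psme1, a proteasome activator subunit (r = 0.965). All 12 were below 0 in Dil minus WT, from -2.37 ± 0.28 for Ces1d to -0.12 ± 0.05 for Ctnnd2 (SE). Likeness over mice thus took in genes with far larger and far smaller differences than those of the 4 genes. The highest of 6832 values of r over 12 mice is high in part because it is the highest, and no test was made of it.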

How the data were processed

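Each of 11 two-colour cDNA arrays, printed with 32 pins, compared ventricular RNA of 2 mice, per the labels. The values are log2 ratios that the authors deposited, 1 per spot and array. Neither the scanner nor the background correction, normalization, log base or dye order is stated there or in the value table. Column medians lay between -0.0114 and 0.0068, and each array had 17207 values on 17664 spots. Without spot brightness the signal behind a ratio is unknown, and the number of arrays limits precision.

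On the array of Hyp1 and WT1, 24 of 24 blocks matched set 1's other arrays, summed, best 8 blocks away (correlation 0.504 to 0.745). In 40 of 46 position groups, chosen by their match to the same arrays, the spots were moved back, which left 3840 spots without a value there. The correlation over named spots then rose from 0.488 to 0.807, which follows in part from that choice.

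Spots were named by the platform annotation, spots of a gene were averaged, and 736 control spots were left out. Features with a value on at least 9 arrays (12097, of which 8106 genes) were fitted by generalised least squares. The terms were dye and the differences of Dil and of Hyp from WT, and mice were random effects with 1 variance ratio (0.303). Moderation used limma 3.58.1 on R 4.3.3, where the prior had 3.26 degrees of freedom, with Benjamini-Hochberg adjustment over all features and a threshold of 0.05. The fit was also run on data simulated from the same model, which cannot show that the model suits these data. Degrees of freedom count arrays, and 4 mice per group from separate animals are the replicates. Alternatives were the dye term, the displaced column, ordinary least squares, direct arrays, array scaling, the filter, single spots, the replicate block and leaving out each set. Set differences cancel in every ratio, so whether same-numbered mice vary together could not be checked.

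Members and lists were chosen with earlier results of these data known. Named were the 4 genes, the measured genes of the cycle, of pyruvate dehydrogenase and of its regulators, of other lists those that passed and the lowest and highest in Dil minus WT, and the 3 genes most like each of the 4.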

Additional observations from a re-analysis of the deposited data

How the results depend on the processing

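The 4 genes stayed below 0 in all 3 comparisons under every alternative that gave them a value. The number of them with an adjusted p under 0.05 in Dil minus WT, by which they were chosen, was 4 of 4 with ordinary least squares, 3 of the 3 that had a value on all 11 arrays, 3 of 4 without the dye term, 3 with the displaced column as deposited, 2 with that array left out (Fh1 and Pdp2), 1 with arrays scaled to the same spread (Fh1), and 0 with direct arrays only or with the replicate block. It was 1 without set 2 (Pdp2) and 0 without set 1, 3 or 4. In Hyp minus WT and Dil minus Hyp none of the 4 passed under any alternative, and their lowest adjusted p was 0.140, for Fh1 in Dil minus Hyp. With 1 set left out, Dil minus WT ran from -1.26 to -0.96 for Pdp2, from -0.66 to -0.42 for Suclg1, from -0.51 to -0.39 for Fh1 and from -0.35 to -0.31 for Mdh2.

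Over all features, 260 passed in Dil minus WT, and this became 159 with the array of Hyp1 and WT1 left out, 99 with scaled arrays, 7 with direct arrays only, 6 with the replicate block, which pairs mice by set number, and 121, 80, 0 and 12 without sets 1, 2, 3 and 4 (range 0 to 121). In Dil minus Hyp 20 passed, against 43 without the dye term, 41 with the column as deposited, 52 with ordinary least squares, 7 with that array left out, 0 with direct arrays only or the replicate block, and 15 without set 2 and 0 without any 1 of the others (range 0 to 15). Asking for at least 6 arrays in place of 9 gave the same features. The cause of these shifts was not tested.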
